A study of Homo sapiens with 4 samples.

Results

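Heparan sulfate proteoglycans of the cell surface and the enzymes that build their chains were examined as RNA recovered with PARP1, a nuclear enzyme that adds ADP-ribose to proteins. The 10 genes are the syndecans SDC1, SDC2, SDC3 and SDC4, the glypicans GPC1 and GPC6, and the synthesis enzymes EXT1, EXT2, NDST1 and HS6ST1. They were chosen by symbol, through the Ensembl gene identifier that each site carries, and are 10 of the 20704 annotated genes named in at least 1 immunoprecipitate. PARP1 complexes were pulled down with a Flag antibody from lysates of HK-2, an immortalised cell line from human proximal tubule, in 2 samples (IP 1 and IP 2), and the labels do not describe how PARP1 was tagged. There are also 2 input samples, which were not analysed here, and no treatment, genotype or control immunoprecipitate is named. The labels do not say whether the 2 immunoprecipitates came from separate cultures, so differences between them may be technical.

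Each value is a site, which is 1 base on 1 strand of GRCh38 where sequenced tags carry a substitution, deletion or insertion. The authors listed 166248 sites in IP 1 and 229782 in IP 2, with 419675 and 572870 tags over them. A sense site lies on the coding strand of the gene it is assigned to. Of 16 markers of proximal tubule and other epithelial cells, 10 were named in both lists (62.5%, against a mean of 65.02% of protein-coding genes of like span), and the proximal tubule markers ANPEP, SLC22A6 and AQP1 were among those with no site in either. Of 16 markers of other kidney and blood cells, 4 were named in both (against 63.03%). With no input list, the amount of each RNA in the cell and its recovery with PARP1 cannot be told apart.

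Heparan sulfate is a long sulfated sugar chain that binds growth factors and matrix proteins. Syndecans cross the plasma membrane and glypicans are held there by a lipid anchor, and both carry the chains on a core protein. EXT1 and EXT2 work as a pair that lengthens the chain in the Golgi. NDST1 then swaps acetyl for sulfate groups on glucosamine, and HS6ST1 adds further sulfate to the same sugar. In tubule epithelium these proteoglycans lie on the cell surface facing the basement membrane, where they act in adhesion and growth factor signalling.

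All 10 genes were named in both immunoprecipitates, against 55.4% of 19951 protein-coding genes. All 10 also had a sense site in both, against 50.7%, and SDC3, GPC1, EXT1 and HS6ST1 had an exonic sense site in both, against 14.6%. Longer genes were named more often. In the bins of gene span that hold the 10 genes, out of 10 equal bins, 76.8% of protein-coding genes were named in both on average. In the 10 genes IP 1 listed 261 sense sites and IP 2 listed 353, with 18 and 30 sites on the opposite strand. Sense sites were thus 93.5% and 92.2% of their sites, compared with 88.9% and 84.8% over all protein-coding genes. EXT1 and GPC6 together made up 70.5% of the sense total in IP 1 and 68.6% in IP 2. The other 8 genes had between 7 and 13 sense sites each in IP 1 and between 3 and 38 in IP 2. Most sense sites were intronic, 249 in IP 1 and 332 in IP 2. Coding sequence held 5 sites in each, 3′ untranslated regions (UTRs) 6 and 13, and 5′ UTRs 1 and 3.

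**Figure D1:**
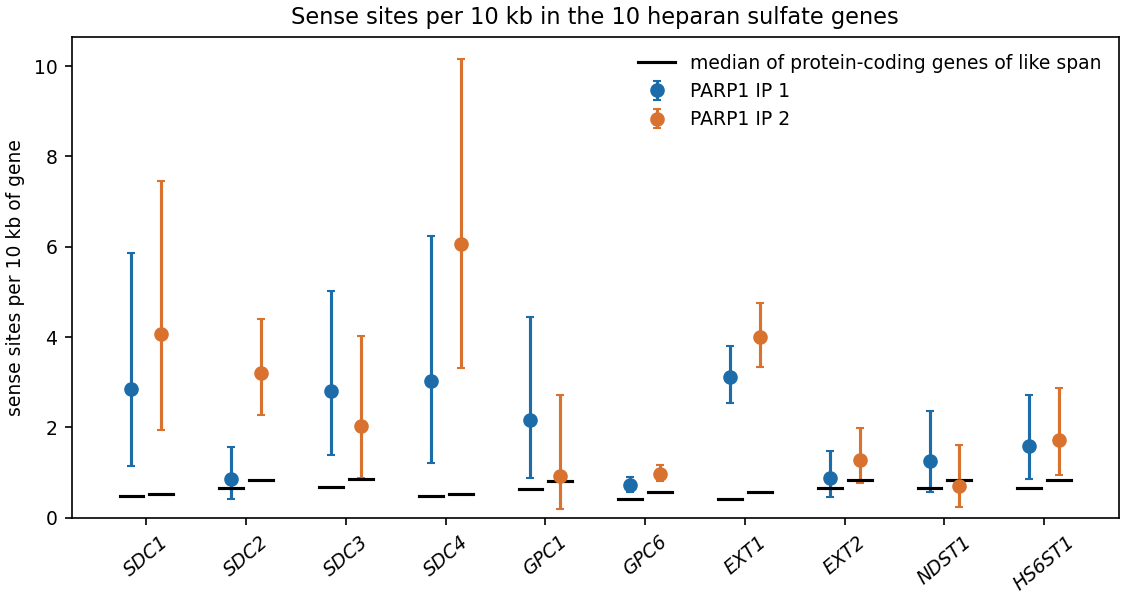
Sense sites per 10 kb of gene (vertical axis) for the 10 genes in IP 1 and IP 2. Points are the densities, bars are exact 95% Poisson intervals for counting error, and black lines are the medians of protein-coding genes in the same bin of gene span. The interval lay above that median for 7 of 10 genes in each immunoprecipitate.

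The density of sense sites divides by gene length, but it still varied with length. Its median over the 10 genes was 1.87 per 10 kb in each immunoprecipitate, against 0.269 in IP 1 and 0.412 in IP 2 over all protein-coding genes. The median span was 77128 bases for the 10 genes and 27107 for all protein-coding genes. In the span bins of the 10 genes, the medians of protein-coding genes ran from 0.406 to 0.679 in IP 1 and from 0.529 to 0.857 in IP 2. As a density, 10 of 10 genes in IP 1 and 9 of 10 in IP 2 stood above the median of protein-coding genes of like span. The exception in IP 2 was NDST1, where 2 more sense-strand sites in the span were assigned to another gene. In IP 1 the order was EXT1, SDC4, SDC1, SDC3, GPC1, HS6ST1, NDST1, EXT2, SDC2 and GPC6. In IP 2 it was SDC4, SDC1, EXT1, SDC2, SDC3, HS6ST1, EXT2, GPC6, GPC1 and NDST1. Every pair of neighbours in either order had overlapping exact Poisson intervals at 95%, and intervals were apart only for genes further apart in the order. EXT1 at 3.12 per 10 kb (interval 2.54 to 3.80) and GPC6 at 0.720 (0.575 to 0.890) were apart in IP 1. In IP 2 EXT1 was at 4.00 (3.34 to 4.76) and GPC6 at 0.974 (0.804 to 1.17).

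Among the syndecans, SDC4, the syndecan of focal adhesions, had the highest density in both immunoprecipitates, with intervals that overlap those of SDC1 and SDC3. For SDC4 (chromosome 20, 45325288 to 45348424, minus strand) IP 1 listed 7 sense sites and IP 2 listed 14, a density of 3.03 and 6.05 per 10 kb. These densities count neighbouring bases separately. After merging sites within 10 bases, 7 places remained in IP 1 and 11 in IP 2. Each gene's density was also ranked within the protein-coding genes of its span bin, and SDC4 was at percentile 91.2 in IP 1 and 99.1 in IP 2. SDC1 (chromosome 2, 20200797 to 20225433, minus strand), the main syndecan of epithelia, had 7 and 10 sense sites, or 2.84 and 4.06 per 10 kb. Its percentiles were 90.1 and 95.4. SDC1 and SDC4 are thus high for their span in both lists, while their intervals reach down to 1.14 and 1.22 per 10 kb in IP 1.

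SDC2 (chromosome 8, 96493351 to 96611780, plus strand), a syndecan of mesenchymal cells, was the one gene of the 10 that differed between the immunoprecipitates beyond counting error. IP 1 listed 10 of its sense sites and IP 2 listed 38, or 0.844 and 3.21 per 10 kb, at percentiles 57.7 and 96.8. As a share of all sense sites of each list, SDC2 was 3.10 times as frequent in IP 2 as in IP 1 (exact interval 1.52 to 6.99). For the other 9 genes the interval of this ratio included 1, and the 10 intervals were not adjusted for their number. All SDC2 sense sites were intronic. In the principal transcript the first intron (99148 bases, 86.5% of intron length) held 8 of 10 in IP 1 and 33 of 38 in IP 2. Only 1 SDC2 sense site was in both lists. The sites of IP 2 were mostly shallow, since 3 of the 38 had 5 or more tags.

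SDC3 (chromosome 1, 30869467 to 30908761, minus strand), a syndecan best known from the nervous system, had the largest exonic share. IP 1 listed 11 sense sites and IP 2 listed 8 (2.80 and 2.04 per 10 kb, percentiles 92.6 and 80.1). Exons held 5 of 11 (exact binomial interval 16.7% to 76.6%) and 6 of 8 (34.9% to 96.8%). These intervals take neighbouring bases as separate sites and are too narrow. Merging sites within 10 bases left 9 places in IP 1 and 7 in IP 2. Over all protein-coding genes, the exonic share was 9.36% in IP 1 and 8.77% in IP 2. Within SDC3 the classes differed between the lists, with 4 coding sites in IP 1 and 0 in IP 2, and 1 and 5 sites in the 3′ UTR. The deepest site of all 10 genes was a deletion in this 3′ UTR, with 24 tags in IP 1 of which 3 carried it.

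Sequence is given for some of the deeper exonic sites, chosen with their tags known, and for the HS6ST1 site found in both lists. It lets the listed bases be read in context. Exonic sites of EXT1 are not printed, and neither are SDC3 3′ UTR deletions with 12 and 11 tags in IP 2. The letters are RNA-sense sequence from the GENCODE release 29 transcripts (GRCh38), 5′ to 3′, and capitals mark the bases listed as mutated. Coordinates are those of the capitals.
SDC3 coding sequence, deletion, chr1:30877029-30877030, minus strand: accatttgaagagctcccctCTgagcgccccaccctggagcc
SDC3 coding sequence, deletion, chr1:30877100-30877101, minus strand: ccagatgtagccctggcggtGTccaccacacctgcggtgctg
SDC3 3′ UTR, deletion, chr1:30872335-30872335, minus strand: acttacacaccccCagacacgtactgc
SDC4 3′ UTR, deletion, chr20:45325627-45325627, minus strand: ggtagggggggggGaatgggggagggc
SDC4 3′ UTR, insertion, chr20:45326209-45326209, minus strand: catagttttttttTagcagatcccaaa
GPC1 3′ UTR, substitution, chr2:240466447-240466447, plus strand: tcccagccccaggCctggcctcgcctg
HS6ST1 3′ UTR, deletion, chr2:128267830-128267830, minus strand: ttgcgcaagagacGaggacagcggaaa

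In SDC3 the pairs of coding bases have 13 and 7 tags in IP 1, with 2 tags mutated at each base, and each pair is a run of 2 neighbouring bases listed separately. The SDC4 sites were listed in IP 2 only, with 11 and 13 tags and 3 mutated tags each, and they lie in runs of 10 G and 9 T. The SDC3 3′ UTR deletion lies in a run of 5 C. Runs of 3 or more identical bases held 3 of 8 exonic deletions and insertions of the 10 genes in IP 1 and 5 of 13 in IP 2. Over all protein-coding genes the share was 46.0% and 46.4%. Exonic substitutions of the 10 genes lay in such runs in 0 of 4 and 0 of 8 cases, against 16.7% and 16.2% over all protein-coding genes.

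GPC6 (chromosome 13, 93226842 to 94407401, plus strand), the glypican whose loss causes recessive omodysplasia, spans 1180560 bases, and 85 sense sites were listed for it in IP 1 and 115 in IP 2. These are 0.720 and 0.974 per 10 kb, at percentiles 62.1 and 64.9. Among the 400 genes nearest in span, GPC6 was higher, at percentiles 76.6 and 77.9. Its sites were shallow, with at most 5 tags in either list and 1 of 85 and 5 of 115 sites at 5 or more tags. In the principal transcript the first intron makes up 27.05% of the intron length and held 34 of 85 intronic sites in IP 1 and 41 of 113 in IP 2. By 200 kb windows from the start, IP 1 had 21, 22, 9, 11 and 17 sites and IP 2 had 30, 27, 22, 13 and 18. The last, shorter window held 5 in each. On the same strand, the 100 kb before the gene held 1 site in each list and the 100 kb after it 1 and 4.

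GPC1 (chromosome 2, 240435671 to 240468078, plus strand), a glypican that binds fibroblast growth factors, had 7 sense sites in the IP 1 list and 3 in the IP 2 list (2.16 and 0.926 per 10 kb, percentiles 83.7 and 52.9). With so few sites the intervals, 0.868 to 4.45 and 0.191 to 2.71, overlap. At the 3′ UTR base whose sequence is given, 5 of 10 tags were mutated in IP 1. IP 1 listed this base on the minus strand too, with 2 of 2 tags mutated, and IP 2 listed it on neither strand. No gene of the 10 had a lower number of sense sites than GPC1 in IP 2.

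EXT1 (chromosome 8, 117794490 to 118111853, minus strand), the chain-lengthening enzyme whose loss causes hereditary multiple exostoses, stood apart by its number of sites with 5 or more tags. IP 1 listed 99 sense sites in it and IP 2 listed 127, or 3.12 and 4.00 per 10 kb, at percentiles 98.8 and 99.5. Its partner EXT2 (chromosome 11, 44095549 to 44245429, plus strand) had 13 and 19, or 0.867 (interval 0.462 to 1.48) and 1.27 (0.763 to 1.98) per 10 kb, at percentiles 58.3 and 65.2. The intervals of EXT1 and EXT2 did not overlap in either list. Few sites lay on the opposite strand of EXT1, 8 in IP 1 and 4 in IP 2.

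The median EXT1 site had 5 tags in IP 1 and 6 in IP 2, where the median over all protein-coding genes was 2 in both. Sites with 5 or more tags numbered 55 of 99 (55.6%, exact binomial interval 45.2 to 65.5) and 74 of 127 (58.3%, 49.2 to 67.0), against 8.96% and 9.45% of sense sites of all protein-coding genes. Among the 1276 protein-coding genes with 20 or more sense sites in IP 1, this share was at percentile 98.7, and among 1662 in IP 2 at 99.0. By the number of such sites EXT1 was 5th of 19951 protein-coding genes in IP 1 and 3rd in IP 2, behind PLCB4 and TRIO in both. By such sites per 10 kb, which divides by its length, it was 288th in IP 1 and 198th in IP 2. EXT1 supplied 57.1% of the tags over sense sites of the 10 genes in IP 1 and 57.8% in IP 2. The other 9 genes had 8 such sites in all in IP 1 and 16 in IP 2. Outside EXT1 the pooled share of sites with 5 or more tags was 4.94% and 7.08%, but it covers unlike genes. SDC3 had 5 such sites of 11 in IP 1 (45.5%, interval 16.7 to 76.6). In IP 2 it had 3 of 8 (37.5%, 8.52 to 75.5). Both intervals overlap those of EXT1.

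**Figure D2:**
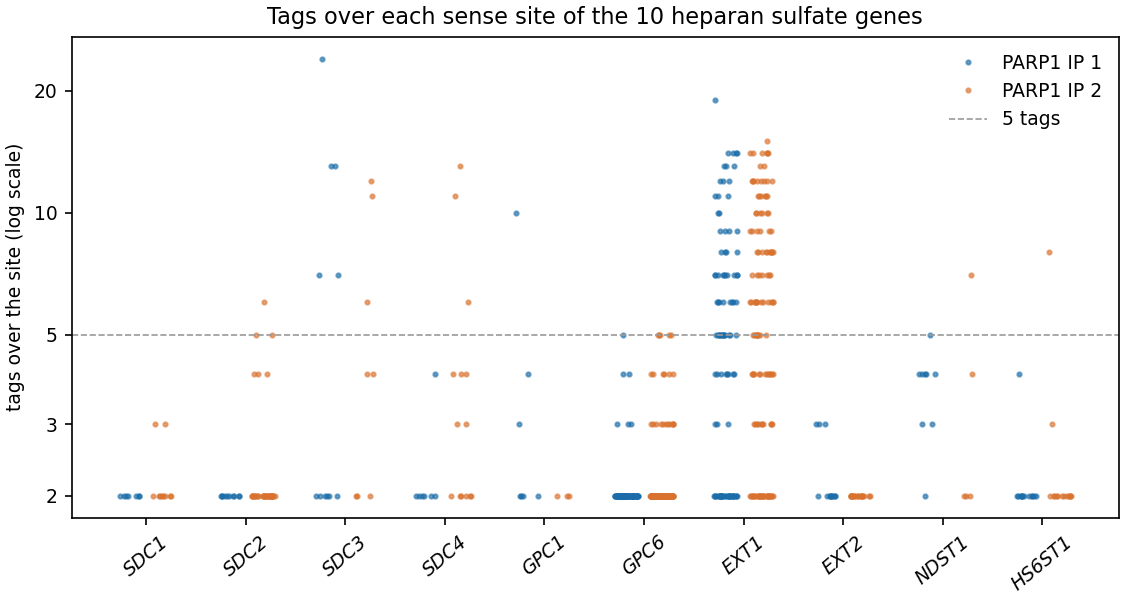
Tags over each sense site (vertical axis, log scale) of the 10 genes in IP 1 and IP 2, 1 point a site, spread sideways for legibility. EXT1 has 55 and 74 sites at or above the dashed line at 5 tags, and the other 9 genes 8 and 16 in all.

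Deletions and insertions were a larger share of the listed sites at deep sites, in EXT1 and over all protein-coding genes. What was listed differed by type. In the 10 genes every substitution with 2 mutated tags had 2 tags, but deletions with 2 mutated tags reached 14 tags. How far this accounts for the shares was not tested. Of the EXT1 sense sites, 62.6% in IP 1 and 66.1% in IP 2 were deletions or insertions, against 32.1% and 32.9% over all protein-coding genes. At sites with 5 or more tags the EXT1 share was 70.9% (exact interval 57.1 to 82.4) in IP 1, and that of all protein-coding genes 70.9%. In IP 2 these shares were 82.4% (71.8 to 90.3) and 69.6%. At sites with fewer tags EXT1 was at 52.3% (36.7 to 67.5) and 43.4% (29.8 to 57.7), against 28.3% and 29.01% over all protein-coding genes. Neighbouring bases were often listed together, and merging sites within 10 bases of each other left 82 places in IP 1 and 108 in IP 2. The intervals of EXT1 count such bases separately and are therefore too narrow.

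Depth in EXT1 was greatest toward the start of the gene. The first intron of the principal transcript is 272883 bases long, 88.3% of the intron length, and held 87 of 96 intronic sites in IP 1 and 112 of 122 in IP 2. In windows of 50 kb from the start, sites with 5 or more tags numbered 14, 18, 10, 7, 5 and 1 in IP 1, with 0 in the last, shorter window. In IP 2 they numbered 19, 26, 13, 10, 0 and 3, with 3 in that last window. Sense sites of any depth were spread more evenly, at 22, 22, 14, 14, 13 and 12 in IP 1 and 23, 31, 17, 22, 10 and 20 in IP 2. More of the deep sites than not thus lay in the first 100 kb in both lists, which was not so for sense sites of any depth. Same-strand sites were fewer outside the gene, with 3 and 8 in the 100 kb before it and 16 and 14 in the 100 kb after it. The next protein-coding gene upstream on that strand, SAMD12, had 65 and 61 sense sites over 432658 bases, of which 0 and 2 had 5 or more tags. The next one downstream, RAD21, had 14 and 7 sense sites over 28932 bases, of which 8 and 1 had 5 or more tags. Its density was 4.84 per 10 kb in IP 1 and 2.42 in IP 2, so EXT1 at 3.12 and 4.00 was not the denser gene in both lists.

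**Figure D3:**
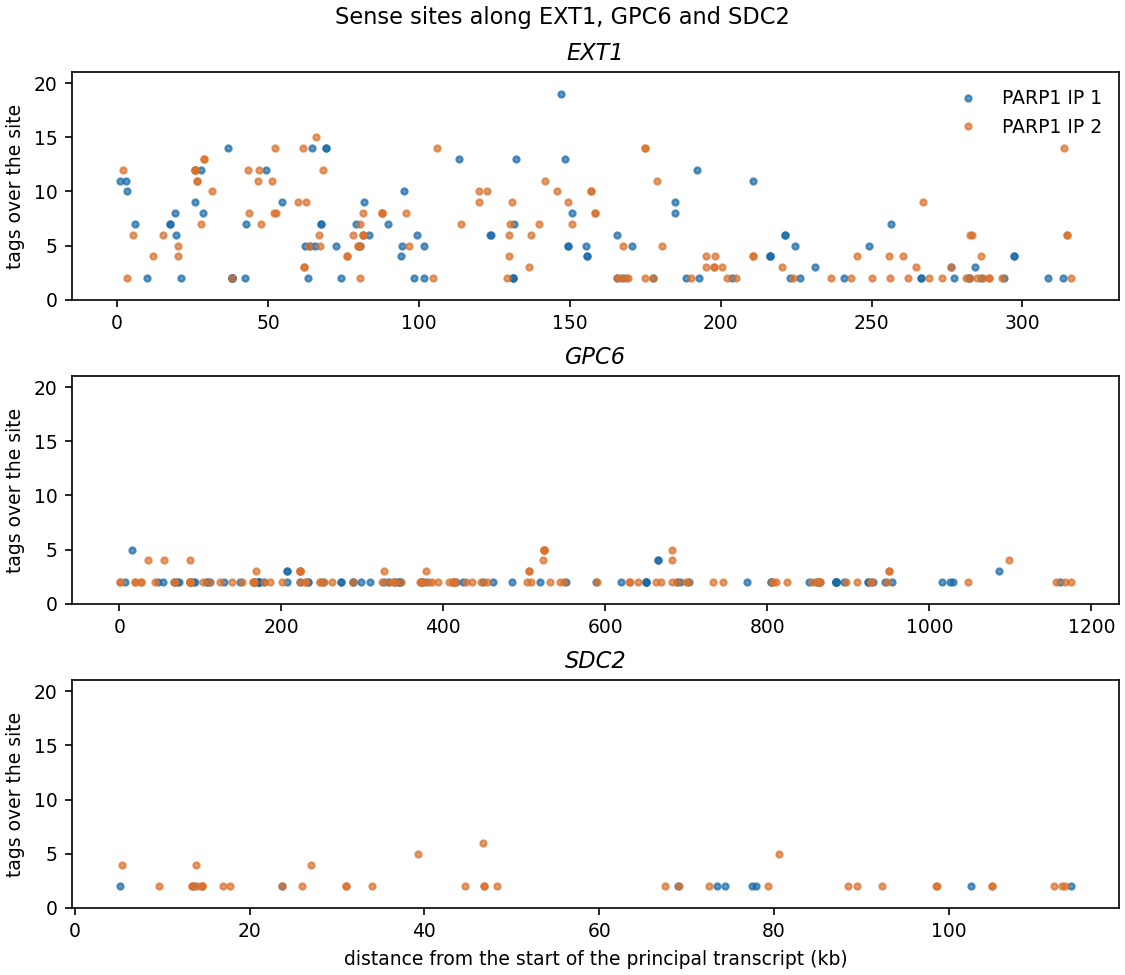
Tags over each sense site (vertical axis) against distance from the start of the principal transcript in kb (horizontal axis) for EXT1, GPC6 and SDC2, coloured by immunoprecipitate. EXT1 sites reach 19 tags and are deepest in the first part of the gene, GPC6 sites stay at or under 5 tags over 1180560 bases, and SDC2 has 10 sites in IP 1 and 38 in IP 2.

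Of the sulfation enzymes, HS6ST1 was the 6th of the 10 by density in both lists, and NDST1 the 7th in IP 1 and the lowest in IP 2. For HS6ST1 (chromosome 2, 128236716 to 128318577, minus strand) IP 1 listed 13 sense sites and IP 2 listed 14, or 1.59 and 1.71 per 10 kb, at percentiles 77.8 and 75.3. On its opposite strand IP 2 listed 10 sites and IP 1 listed 0, and 4 of the 10 are deletions at neighbouring bases. NDST1 (chromosome 5, 150485818 to 150558211, plus strand) had 9 and 5 sense sites, or 1.24 and 0.691 per 10 kb, at percentiles 67.4 and 45.8. All of them were intronic, and 8 of 9 and 3 of 5 were deletions or insertions.

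At the same base and strand, 13 sense sites of the 10 genes were in both lists. They lay in 5 of the 10 genes, against 14.1% of all protein-coding genes and a mean of 22.2% of protein-coding genes of like span. As a share of sites, they made up 4.98% for the 10 genes in IP 1 and 3.68% in IP 2, where all protein-coding genes had 4.96% and 4.11%. GPC6 had 4 shared sites, EXT1 and HS6ST1 3 each, SDC1 2 and SDC2 1. SDC3, SDC4, GPC1, EXT2 and NDST1 had none. In HS6ST1 the 3 were 23.1% of its sites in IP 1 and 21.4% in IP 2, and SDC1 had 2 of 7 and 2 of 10.

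Substitution was the type in both lists at 12 of the 13 shared sites, and at 11 of the 13 every tag was mutated in both. Over shared sites of all protein-coding genes these shares were 82.5% and 83.5%. Since every listed site has at least 2 mutated tags, a site with 2 tags is fully mutated by construction. Of the 11 sites, all but a coding site of EXT1 had 2 tags in at least 1 list. The exception in type was the HS6ST1 3′ UTR deletion whose sequence is given, with 2 of 4 tags mutated in IP 1 and 2 of 8 in IP 2. Exonic in both lists were this site and a coding site in exon 3 of EXT1, where 3 of 3 tags were mutated in each. At an intronic EXT1 site 4 of 5 tags were mutated in IP 1 and 2 of 2 in IP 2. One shared intronic base of SDC1, with 2 of 2 and 3 of 3 tags mutated, appeared in IP 1 on the plus strand as well.

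The rest of the pathway was read from 57 further genes. Of these, 47 were named in both lists (82.5%, against a mean of 69.6% of protein-coding genes of like span) and 17 had a shared sense site (29.8%, against 21.05%). Their median density of sense sites was 0.711 per 10 kb in IP 1 and 1.09 in IP 2, below the 1.87 of the 10 genes in each. Of the enzymes that build the linker between core protein and chain, both lists named 6 of 7, against 50.1% of protein-coding genes of like span. XYLT2, a xylosyltransferase that starts the linker, had 7 sense sites in each list (percentiles 95.1 and 94.6), and B4GALT7, which adds the next sugar, had 6 and 3 (97.6 and 87.8). Among the other polymerisation enzymes 1 of 3 was named in both, against 61.6% of genes of like span. EXTL3 had 8 sense sites in each list (43.5 and 39.5), EXTL2 0 and 2, and EXTL1 0 in both.

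Of the other chain-modifying enzymes, 10 of 14 were named in both (71.4%, against 77.9% of genes of like span), and their median percentiles of density were 35.8 in IP 1 and 34.7 in IP 2. The highest of them were far above this. HS3ST3A1, a 3-O-sulfotransferase, also had many deep sites, where IP 1 listed 38 sense sites and IP 2 listed 53, of which 15 and 28 had 5 or more tags. Its percentiles were 98.6 and 99.8. HS2ST1, the 2-O-sulfotransferase, had 30 and 43 (85.2 and 91.2), and HS3ST1, another 3-O-sulfotransferase, had no sense site. All 12 genes of chain editing and degradation were named in both, against 68.7% of genes of like span, such as the lysosomal enzymes IDUA (5 and 6 sense sites), SGSH (4 and 6) and GUSB (10 and 4).

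Of the donor supply genes, both lists named 8 of 9, against 68.1% of genes of like span. UXS1, which makes UDP-xylose, had 24 and 39 sense sites with 5 shared (percentiles 93.3 and 98.6). PAPSS1, which makes the sulfate donor, had 14 and 22, and its Golgi transporter SLC35B2 had 2 and 3 over 3795 bases (96.1 and 98.2). Of 8 genes of syndecan shedding and scaffolding, 6 were named in both, close to the 75.4% of genes of like span. PRKCA, a kinase that binds the SDC4 tail, had 132 and 181 sense sites with 6 shared (96.8 and 98.8), the sheddase ADAM17 16 and 22 (90.4 and 94.0) and the scaffold CASK 24 and 41 (57.5 and 65.7). SDCBP2 had no sense site. All 4 remaining glypicans were named in both, against 74.9% of genes of like span, with GPC4 at 10 and 9 sense sites and GPC2 at 2 and 1. The long genes GPC3 (percentiles 22.5 and 12.7) and GPC5 (15.8 and 18.9) had low densities for their span.

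**Figure D4:**
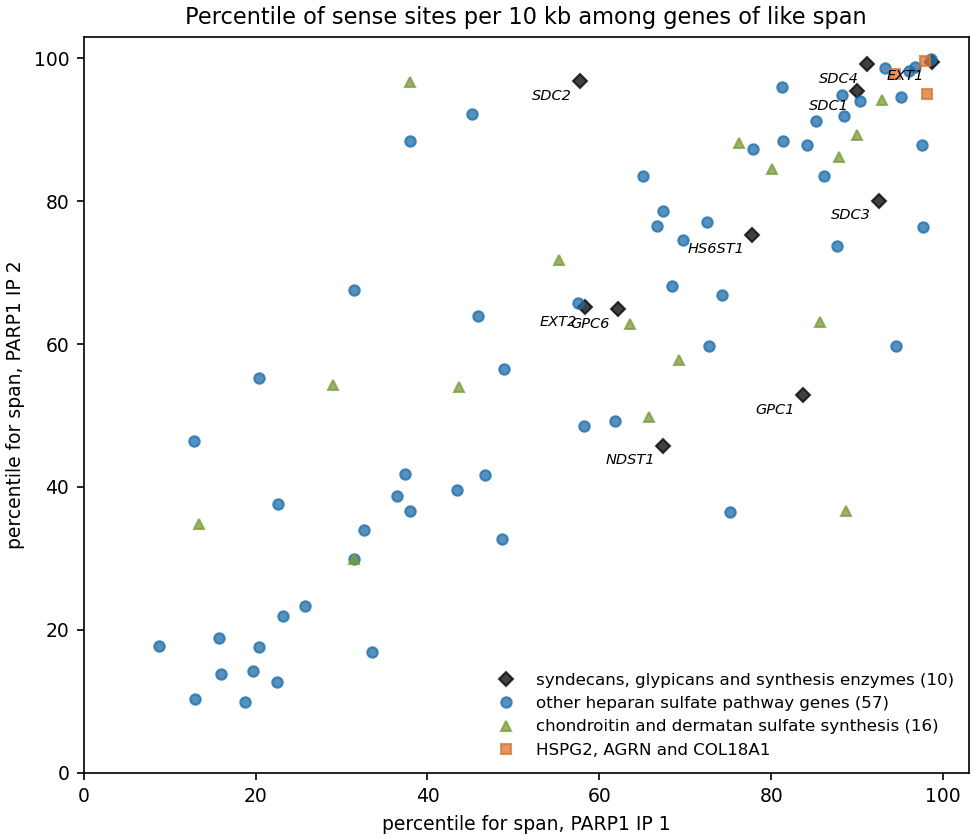
Percentile of the density of sense sites within the span bin of each gene in IP 1 (horizontal axis) and IP 2 (vertical axis), 1 point a gene. Black diamonds are the 10 genes, blue circles the 57 other pathway genes, green triangles the 16 chondroitin genes and orange squares the 3 basement membrane carriers. EXT1 lies at the top right at 98.8 and 99.5, and SDC2 lies off the diagonal at 57.7 and 96.8.

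Chondroitin and dermatan sulfate, the other chains made on the same linker, were read from 16 synthesis genes. Of these 13 were named in both lists, against 65.2% of genes of like span, and the median density of sense sites was 1.06 per 10 kb in IP 1 and 1.10 in IP 2. CHST15, a sulfotransferase, had 23 and 28 sense sites (percentiles 92.9 and 94.1), CHPF2, a polymerising factor, had 2 in each, both shared, and DSEL, an epimerase, had none. The secreted heparan sulfate carriers of the basement membrane had higher densities than most of the 10 genes. HSPG2, AGRN and COL18A1 were at 3.30, 4.44 and 2.49 sense sites per 10 kb in IP 1 and 2.96, 6.95 and 3.50 in IP 2.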

How the data were processed

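Per the labels' protocols, cleared lysates were bound to beads carrying a Flag antibody and washed, and paired-end libraries were made by random-primed reverse transcription. No crosslinking is described. The submitters' processing notes list TopHat2, bcl2fastq and build GRCh38. Their versions, the site caller, its filters and any duplicate removal were not given in the sources used here. Whole-number counts of tags and mutated tags per site were deposited by the authors, with an FDR (a q-value type of measure, at most 0.00909 in IP 1 and 0.00926 in IP 2). Every site has at least 2 mutated tags, so RNA without mismatches is not seen, and total library depth is unknown.

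Site numbers per gene used the authors' gene and region class. Spans, exons and the principal transcript (best APPRIS rank, then basic set, then longest) came from GENCODE release 29. Percentiles are midranks within 10 bins of span over 19951 protein-coding genes. Intervals are exact at 95% (Poisson for densities, Clopper-Pearson for shares, conditional binomial for ratios) and cover counting error only, since amplified tags are not independent molecules. They are also too narrow where neighbouring bases of 1 deletion are listed as separate sites. Python 3.11.15, scipy 1.17.1 and pandas 2.3.3 were used, and counting was tested on simulated data. No hypothesis test was made, because there is no control list and the genes and lists were chosen with earlier results of these data known.

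Other pathway genes were named by rule: in each list up to 2 with most shared sites, 2 with the highest percentile and the longest with no sense site, plus HSPG2, AGRN and COL18A1. PLCB4, TRIO, SAMD12, RAD21, GPC3 and GPC5 stand outside it and were named after their values were seen. The exon sites printed as sequence were also picked with their tags known and without a fixed cutoff. Sites on chromosome 8, which holds EXT1, were left out whatever their tags. Alternatives were a stricter FDR, each list alone, other strand and class rules, mutation types and another span window.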

Additional observations from a re-analysis of the deposited data

How the results depend on the processing

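All 10 genes were named in both lists also with sense sites only and with a stricter FDR (below each list's commonest value), and each list alone named 10. The stricter FDR was applied to sites on either strand. Under it SDC1 in IP 1 and GPC1 in IP 2 kept no sense site and were named only by an opposite-strand site. With exon sites only the number was 4. Of the other pathway genes, 47 were named in both, 46 with sense sites only, 33 with the stricter FDR and 13 with exon sites only, and 48 to 53 in 1 list alone. Genes with a shared sense site numbered 5 of the 10, also within 10 bases or on either strand, but 2 with the stricter FDR and 2 with exon sites only (an alternative added after the data were seen). The stricter FDR and exon settings keep fewer sites by construction. The median of the mean density, 1.84 sense sites per 10 kb, was 1.87 with either list left out, 0.621 with the stricter FDR, 2.23 with both strands, 1.30 with substitutions only, 0.435 with deletions and insertions only and 1.77 with sites within 10 bases merged (also added). For single genes the density moved by more than the SD between lists in 8 of 10 cases with the stricter FDR, and in 0 of 10 with merging or with all sense-strand sites in the span. Percentiles moved so in 2 of 10 (GPC6 and EXT1, both upward) with the 400 genes nearest in span. Exon shares moved so in 2 of 10 (GPC1 and NDST1, both upward) with the GENCODE class. With 3 to 19 sense sites in each list for 7 of the genes, counting error limits every density but those of EXT1 and GPC6. No paired analysis was possible because the inputs that share replicate numbers with the immunoprecipitates were not analysed here and no test between groups was made.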
